A study of Mus musculus with 16 samples.

Results

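Retinoid handling by the neural retina was described through 8 genes, Rbp3, Abca4, Rdh8, Rdh12, Rdh11, Rdh10, Rdh14 and Dhrs3, found by their symbols among the 25905 genes of the table deposited for all genes. All 8 had a value above 0. The retinas came from 16 wild type male C57BL/6 mice, of which 8 were flown for several weeks aboard the International Space Station (spaceflight) and 8 were kept on Earth in the same housing hardware and on the same diet (ground control). The mice were 10 weeks old when the mission began. The right retina of each mouse gave 1 stranded RNA-seq library, and the spaceflight eyes were collected after the animals had returned to Earth alive, so any effect of landing and recovery is part of that group. The value used here is the mean normalized count, which is the authors' mean over all libraries of counts scaled to a common depth. It pools both groups. The counts per library are deposited under laboratory codes that no label ties to a mouse or a group, so the spaceflight group is not compared with ground control here. The levels below have no error between mice, and whether neighbours in their order differ beyond the spread between mice cannot be judged.

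When light strikes a photoreceptor, the 11-cis-retinal bound to opsin is converted to all-trans-retinal, which is toxic if it builds up in the outer segment discs. The flippase ABCA4 moves its adduct with phosphatidylethanolamine to the cytoplasmic face of the disc membrane, and retinol dehydrogenases reduce the freed all-trans-retinal to all-trans-retinol. The product of Rbp3, interphotoreceptor retinoid-binding protein, is secreted by photoreceptors and carries retinoids between them, Müller glia and the retinal pigment epithelium, where 11-cis-retinal is made again.

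The most abundant of the 8 genes was Rbp3, with a mean normalized count of 51760. Per kilobase of its longest reference transcript, its level was 9775, at rank 10 of the 23080 genes with a reference length, and it took up 0.740% of the normalized counts summed over all genes. Among 10 rod photoreceptor genes compared here, 1 had a higher level per kilobase than Rbp3, Gnat1 (the rod transducin alpha subunit) at 65623. The next rod gene, Rcvrn (recoverin), was close below it at 9567 per kilobase. With the length of the counted transcripts, Pde6g (the inhibitory subunit of the rod phosphodiesterase) and Sag (rod arrestin) were also above Rbp3, so that 3 of the 10 rod genes were higher.

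Abca4 was next in order, with a mean normalized count of 11563. Its transcript is the longest of the 8, at 7263 bases, and per kilobase its level was 1592, at rank 140. Rbp3 was thus 6.14 times as abundant as Abca4 per kilobase, and 4.48 times without division by length. The order of these 2 genes depends on the length taken for Abca4. With the median length of its annotated transcripts, 1163 bases, its level was 9943 per kilobase, slightly above that of Rbp3. The transcript that the authors counted for Abca4 matches the one of 7263 bases.

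**Figure D1:**
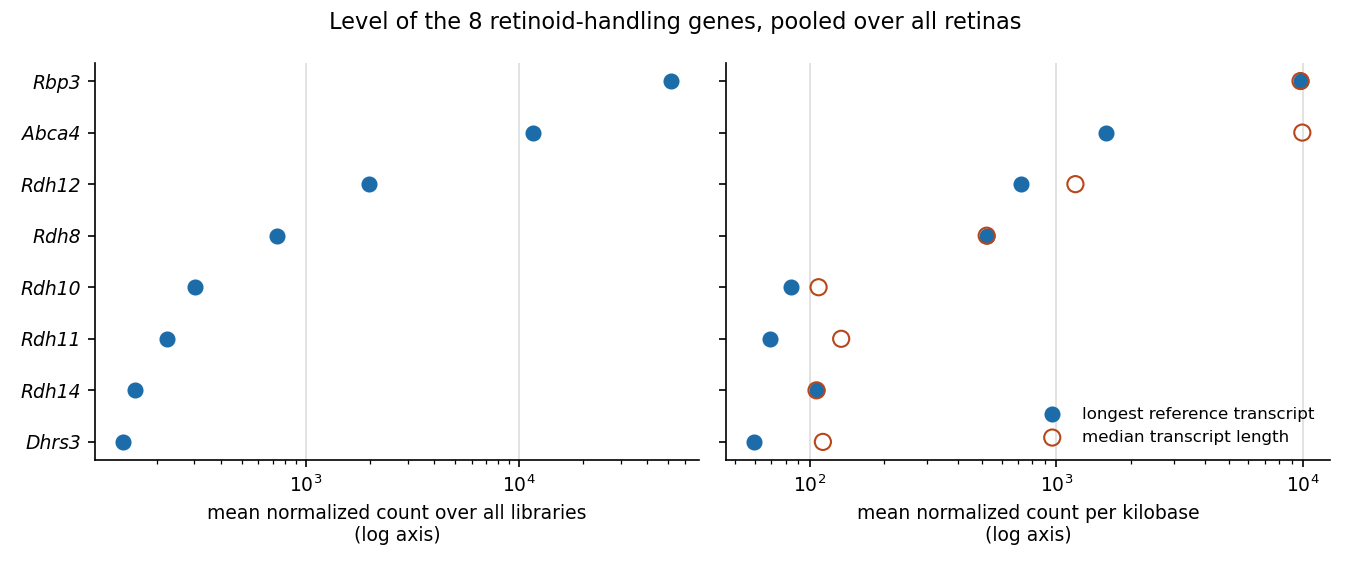
Level of each of the 8 genes as the authors' mean over all libraries, as a mean normalized count (left) and per kilobase (right), both on log axes. Filled points use the longest reference transcript and open circles the median transcript length. Rbp3 at 51760 and Abca4 at 11563 stand above the 6 dehydrogenases, and the open circle of Abca4 reaches that of Rbp3.

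The promoters of 7 of the 8 genes were found in RefSeq on assembly GRCm38.p6 (250 bases before to 50 after the start of transcription). The exception was Rdh10. Those of the 4 most abundant genes are printed because they differ in the letters TAATCC, a core recognised by CRX, the homeobox factor that drives photoreceptor genes. Capitals mark TAATCC on either strand (GGATTA on the printed one) and TAATTA, a core shared by many other homeobox factors. The printed strand is that of the gene, + in all 4, and the regions are chr14:33953753-33954052 for Rbp3, chr3:122044210-122044509 for Abca4, chr12:79208663-79208962 for Rdh12 and chr9:20818244-20818543 for Rdh8.
Rbp3: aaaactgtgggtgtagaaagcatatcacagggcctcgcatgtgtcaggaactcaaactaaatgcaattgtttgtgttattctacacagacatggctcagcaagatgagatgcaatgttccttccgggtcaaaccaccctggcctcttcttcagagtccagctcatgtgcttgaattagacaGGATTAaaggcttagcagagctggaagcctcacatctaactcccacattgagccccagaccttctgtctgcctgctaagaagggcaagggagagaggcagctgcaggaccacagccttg
Abca4: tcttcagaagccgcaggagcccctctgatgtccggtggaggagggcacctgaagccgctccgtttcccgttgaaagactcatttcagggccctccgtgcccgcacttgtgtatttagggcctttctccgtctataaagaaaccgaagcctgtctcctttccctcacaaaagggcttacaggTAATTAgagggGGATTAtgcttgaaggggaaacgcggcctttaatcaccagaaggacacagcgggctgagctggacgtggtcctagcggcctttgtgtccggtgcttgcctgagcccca
Rdh12: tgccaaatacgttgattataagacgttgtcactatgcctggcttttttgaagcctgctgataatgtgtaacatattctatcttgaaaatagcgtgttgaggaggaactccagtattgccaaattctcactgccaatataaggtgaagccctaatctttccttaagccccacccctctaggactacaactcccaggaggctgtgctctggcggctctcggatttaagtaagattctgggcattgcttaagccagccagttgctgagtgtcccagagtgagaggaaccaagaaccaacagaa
Rdh8: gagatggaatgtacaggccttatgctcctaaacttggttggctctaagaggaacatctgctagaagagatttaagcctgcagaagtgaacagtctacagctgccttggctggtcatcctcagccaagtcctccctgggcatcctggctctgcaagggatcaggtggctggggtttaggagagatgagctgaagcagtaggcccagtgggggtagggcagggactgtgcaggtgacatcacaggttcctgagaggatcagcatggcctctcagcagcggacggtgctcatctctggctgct

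TAATCC was present in 2 of the 7 genes, Rbp3 and Abca4, the 2 with the highest level. In both it lay on the strand opposite to the gene, with its first printed base 69 bases before the start in Rbp3 and 58 in Abca4. Of all 32851 promoters of this length, 7.06% hold it on either strand. TAATTA was found in Abca4, 69 bases before the start and with no base shared with the TAATCC match, and in 1 of the 2 promoters of Rdh11, while 5.29% of all promoters hold it. AGGTCA, the core bound by retinoic acid and related nuclear receptors, was found in the same promoter of Rdh11, against 16.3% of all promoters. TATAAA, the core of the TATA box, was found in Abca4, 119 bases before the start, against 13.6%. The printed windows of Rdh12 and Rdh8 hold 0 matches to the 4 motifs. Only exact letters were searched, so a window without a match may hold a variant of a core. That of Rdh12 holds TAATCT, which differs from TAATCC in its last base. This variant is not particular to Rdh12. Promoters of Dhrs3 and, on the opposite strand, of Rdh11 hold it too. Its share over all promoters was not counted. A match is a stretch of letters, and binding was not measured.

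The 6 dehydrogenases fell into an abundant pair and 4 genes at lower levels. Rdh12 had a mean normalized count of 1974 and a level per kilobase of 717, at rank 413. Its enzyme lies in photoreceptor inner segments and reduces retinal that escapes the outer segment. Rdh8 had a mean normalized count of 734 and a level per kilobase of 522, at rank 602. It encodes the retinol dehydrogenase of photoreceptor outer segments, which acts on all-trans-retinal next to ABCA4. Together Rdh12 and Rdh8 made up 79.5% of the level per kilobase summed over the 6 dehydrogenases, and 76.7% of their summed mean normalized counts.

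The margin between Rdh12 and Rdh8 rests on the transcript chosen for Rdh12. Its longest annotated transcript has 2753 bases, whereas the transcript that the authors counted matches one of 1678 bases. With the latter the level of Rdh12 was 1177 per kilobase, which is 2.25 times that of Rdh8 in place of 1.37 times. The order of all 8 genes was the same with both lengths.

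Rdh14, Rdh10, Rdh11 and Dhrs3 lay within a narrow range, from 59.4 to 107 per kilobase, and each was at a lower level than Rdh8. Rdh14 had a mean normalized count of 158 and the highest level per kilobase of these 4, at 107. Its product is a retinol dehydrogenase of many tissues. Rdh10 had a mean normalized count of 302 and a level per kilobase of 84.1. RDH10 oxidises retinol to retinal, the step that opens retinoic acid synthesis, and is found in Müller glia and the pigment epithelium.

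Rdh11 had a mean normalized count of 225 and a level per kilobase of 68.9. RDH11 reduces retinal in several cell types of the eye, the pigment epithelium included. Dhrs3 had the lowest level of the 8, with a mean normalized count of 139 and 59.4 per kilobase. It encodes a retinal reductase, first described in cone photoreceptors, that limits retinoic acid formation. All 8 genes were above the median of the 19667 genes with a value above 0. Against the genes with a mean normalized count of at least 10, whose median was 174, Rdh14 and Dhrs3 fell below it. Of the genes above 0 with a reference length, 67.6% had a lower level per kilobase than Dhrs3, 78.5% than Rdh14 and 96.6% than Rdh8.

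Without division by length, Rdh10 and Rdh11 stood above Rdh14, while Dhrs3 remained lowest. With the median transcript length the order of the 4 turned to Rdh11, Dhrs3, Rdh10 and Rdh14, at 134, 113, 109 and 107 per kilobase. The longer transcripts of Rdh10 (3587 bases) and Rdh11 (3262 bases) hold mostly noncoding sequence, since the coding part is 28.6% and 29.2% of their length. In Rdh14, at 1480 bases, the coding part is 67.9%. The coding lengths themselves are close, from 909 bases in Dhrs3 to 1026 in Rdh10, so the lengths of these 4 transcripts differ chiefly outside the coding sequence.

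Rdh11 and Rdh12 are neighbours on chromosome 12, on opposite strands and 16.6 kb apart. Their coding sequences were 69.3% identical, the highest of the 15 pairs of the 6 dehydrogenases, and the next pair, Rdh11 and Rdh14, was 53.9% identical. The lowest pair, Rdh12 and Rdh10, was 47.2% identical. Unrelated sequences were not aligned, so the identity to be found without kinship is not known here. Rdh12 had 10.4 times the level of Rdh11 per kilobase, and 17.1 times with the counted transcripts. Of the windows of 75 bases, the length of the reads, in the counted transcripts of the 8 genes, 0 occur exactly in a transcript of another gene in the GENCODE M21 annotation. Exons of another annotated gene overlap those of 0 of the 8 genes on either strand.

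The value of Dhrs3 carries a limit that the others do not. The authors' count tables list reads per transcript accession, with 1 accession for each of 7 genes and 2 for Dhrs3. Of the windows of 75 bases in its transcripts, 93.6% of those in the shorter and 52.8% of those in the longer occur in both, so most positions cannot assign a read to either. Over all genes above 0, the median mean normalized count was 63.3 for genes with 1 accession and 3.94 for genes with 2. Per kilobase the medians were 29.1 and 1.23. Dhrs3 was higher than 92.7% of genes with 2 accessions per kilobase, and higher than 63.4% of those with 1. How reads shared by transcripts were counted is not given in the sources used here, and the part of this in the low place of Dhrs3 was not tested.

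**Figure D2:**
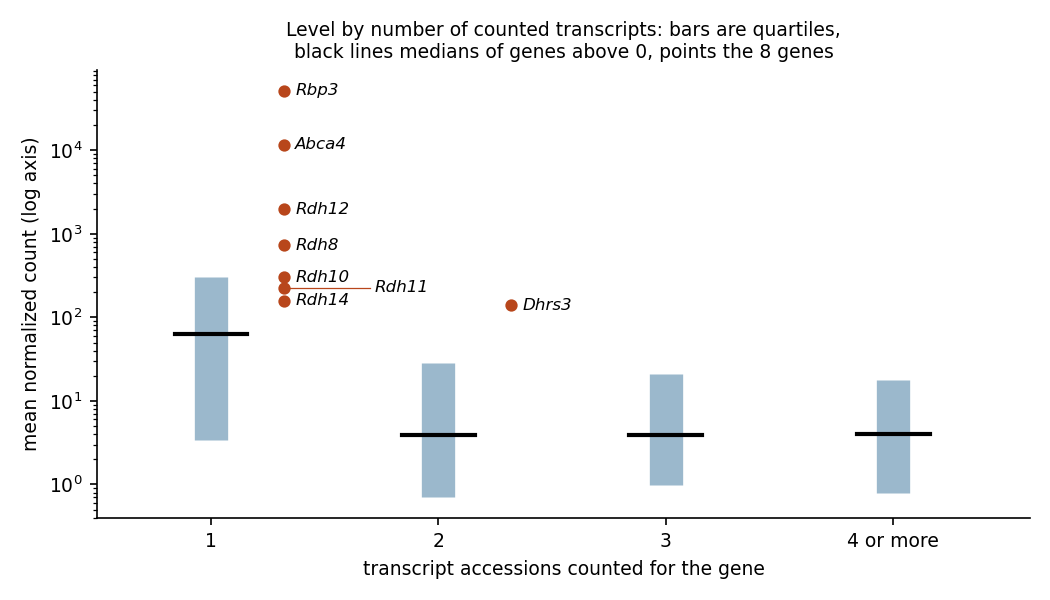
Mean normalized count (log axis) by the number of transcript accessions counted for a gene. Bars span the quartiles and black lines mark the medians of all genes above 0, which are 63.3 for genes with 1 accession and 3.94 for those with 2, and points are the 8 genes. Dhrs3, at 139, is the 1 gene of the 8 with 2 accessions.

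Per kilobase of the longest transcript, the genes of the pigment epithelium's own share of the cycle were at lower levels than Rbp3, Abca4, Rdh12 and Rdh8. Of 9 such genes, 6 had a mean normalized count of at least 10, and the median level per kilobase of the list was 42.3, against 314 for the 8 genes and 4.41 for all genes with a reference length. The highest were Ttr (transthyretin, the carrier of the retinol-binding protein) at 455 per kilobase, Rgr (a retinal G protein-coupled opsin) at 82.0 and Rdh5 (11-cis-retinol dehydrogenase) at 76.5. Rpe65, the isomerase of the pigment epithelium, was at 64.8. With the median transcript length, Rgr was at 602, above Rdh8 at 522. The 3 genes of this list under a mean normalized count of 10, Rlbp1, Stra6 and Rbp4, were each counted under at least 2 accessions. Without them the list's median mean normalized count rose from 102 to 124. The retinas had been dissected from the eye, and how much pigment epithelium came with them was not measured. Rdh8 and Rdh12 were at 6.83 and 9.38 times the level of Rdh5 per kilobase, and Rdh12 at 14.6 times with the counted transcripts. Rdh10 and Rdh11, in contrast, were at 1.10 and 0.901 times that of Rdh5.

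Genes listed here as markers of cells outside the neural retina were measurable in the same libraries. Of 6 pigment cell genes in the table, 5 had a mean normalized count of at least 10, led by Dct at 105 per kilobase, Tyrp1 at 75.1 and Si at 57.2. Dct and Tyrp1 lay within the range of Rdh10, Rdh11, Rdh14 and Dhrs3, and Si just below Dhrs3. What part of the counts of Rdh10 and Rdh11, which the pigment epithelium also expresses, came from adhering pigment epithelium was not tested. Genes of the lens list were also present, led by Cryaa at 709 per kilobase, Crybb2 at 487 and Cryba1 at 209. The lowest of that list were Bfsp1 at 41.6 and Mip at 22.9. What part of the counts of Cryaa, Crybb2 and Cryba1 came from lens was not tested. The highest blood gene was Hbb-b1 (a globin), with a mean normalized count of 10.7 and, by the length of its counted transcript, 15.2 per kilobase. Hba-a2 and Hba-a1 were at 2.51 and 0.305 per kilobase, and Alas2 was listed at 0. In whole tissue, fewer cells of a type and less RNA per cell cannot be told apart.

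**Figure D3:**
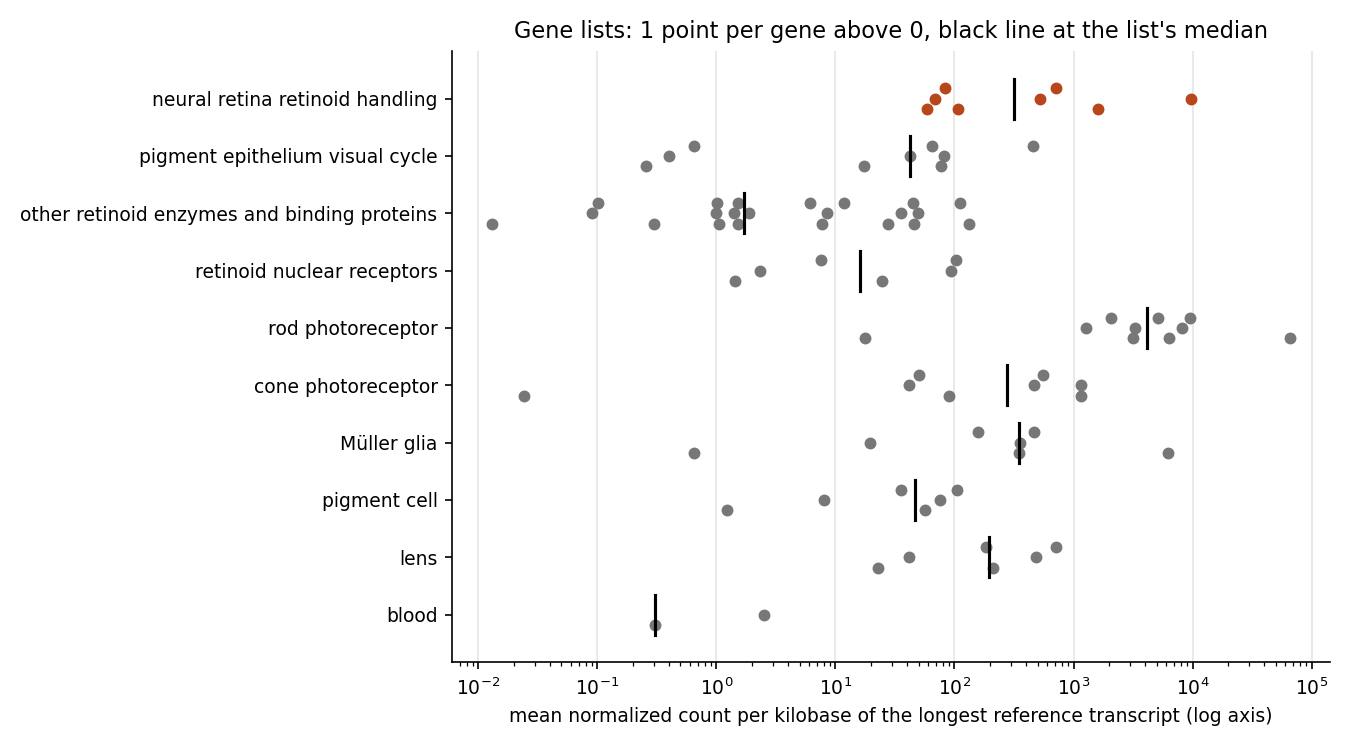
Mean normalized count per kilobase of the longest reference transcript (log axis) for the genes of each list above 0. The black line is the median over the list's genes with such a length, those at 0 included. Hbb-b1 has no such length and is not shown. The 8 genes (top, in colour) run from 59.4 for Dhrs3 to 9775 for Rbp3, with a median of 314. The nearest medians are those of Müller glia (347) and cones (278), with the rod list at 4179 and the pigment epithelium list at 42.3.

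The defining markers of the labelled tissue, retina, were measured, with a few low values. Of the 10 rod genes, 9 were at 1262 per kilobase or more. The cone opsins Opn1sw and Opn1mw were at 1162 and 1148, and Arr3 (cone arrestin) was at 556. The median of the 8 cone genes was 278, and the lowest were Cngb3 at 50.4, Cnga3 at 41.9 and Pde6c at 0.0241. Glul, the glutamine synthetase of Müller glia, was at 6252 per kilobase, followed by Slc1a3 (a glutamate transporter) at 464 and Vim (vimentin) at 352. The median of the 7 Müller glia genes was 347, with Gfap at 19.7 and Rlbp1 at 0.648. Rbp3 and Abca4 were each above all 8 cone genes per kilobase.

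Per kilobase of the longest transcript, the remaining genes of retinoid metabolism were below Rdh8, though a few stood above some of the 4 lower dehydrogenases. Of 24 other enzymes and binding proteins, 10 had a mean normalized count of at least 10 and 2 were listed at 0, and the median of the list was 1.71 per kilobase. The highest were Aldh1a1, a retinaldehyde dehydrogenase that makes retinoic acid, at 133 per kilobase, Dhrs7 at 111 and Rdh13, a mitochondrial relative of RDH11 and RDH12, at 49.5. Rdh12 was at 14.5 times the level of Rdh13 per kilobase (23.4 times with the counted transcripts) and Rdh14 at 2.16 times. Of the 6 retinoid nuclear receptors, Rxra, Rxrb and Rarb were highest, at 103, 93.2 and 24.8 per kilobase. These were each counted under 1 accession, and the other receptors each under at least 2. Aldh1a1 and Dhrs7 were thus above Rdh14, Rdh10, Rdh11 and Dhrs3, and Rxra and Rxrb above the last 3 of these.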

How the data were processed

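Retinal RNA-seq libraries of 8 spaceflight and 8 ground control mice had been made with a stranded kit. Per the methods, trimming by the authors was done with Trimmomatic, mapping with TopHat2 to a mouse build older than GRCm38, and counting with HTSeq. The signal used here is the mean normalized count that the authors deposited for each gene, from DESeq2 1.22.2 in R 3.5.1, over all libraries. The same table holds their log2 fold-changes, standard errors, Wald statistics and p-values of the comparison of the groups, and a second table holds these for the genes past their threshold. As results of the authors' own comparison, none was used. The 32 columns of counts in 2 further tables have laboratory codes that no label ties to a sample, and only their accessions and symbols were read. The planned test of spaceflight against ground control on counts therefore could not be run, and depth per library was not read.

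Levels were divided by the longest transcript of the gene in GENCODE M21 (GRCm38), matched by symbol for 20840 genes and by an older symbol for 2240. Coding sequences were aligned globally, with identity over all aligned columns. The ranking, the motif search, the search for shared windows and the rounding were tested on simulated data. The alignments, the exon overlaps and the matching of lengths were not. The 8 genes and 10 lists were chosen with earlier results of these data known. Named are all 8 genes and, of each list, the 3 highest per kilobase. Genes outside that rule (Sag, Rpe65, Rlbp1, Cnga3, Cngb3, Pde6c, Pde6h, Gfap, Hbb-b1, Nrl, Nr2e3, Stra6, Rbp4, Bfsp1 and Mip) were chosen after their values were seen. 1 rod gene beside the 10 of the rod list is not reported here. Alternatives were the median transcript length, no division by length and a minimum mean normalized count of 10. The length of the counted transcript was added after seeing the data. The software was pandas 2.3.3 and numpy 2.4.6 under Python 3.11.15, with matplotlib 3.10.9 for plots.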

Additional observations from a re-analysis of the deposited data

How the results depend on the processing

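No paired analysis was possible because the columns of counts carry no replicate number or group. The planned test of spaceflight against ground control and its alternatives (another normalization, no filter, a stricter threshold and the block) were not run for the same reason. With the median transcript length, the levels per kilobase were 9943 for Abca4, 1196 for Rdh12, 109 for Rdh10, 134 for Rdh11 and 113 for Dhrs3, and those of Rbp3, Rdh8 and Rdh14 did not change. The order was then Abca4 at 1, Rbp3 at 2, Rdh11 at 5, Dhrs3 at 6, Rdh10 at 7 and Rdh14 at 8, with Rdh12 and Rdh8 in their places. For Abca4 this median, 1163 bases, includes forms shorter than the counted transcript of 7263 bases. Without division by length, Rdh10 was at 5, Rdh11 at 6 and Rdh14 at 7. With the counted transcript, the level of Rdh12 was 1177 and the order did not change.

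Among genes with a mean normalized count of at least 10, the percent of genes with a lower mean normalized count was 99.9 for Rbp3, 99.7 for Abca4, 95.7 for Rdh12, 83.7 for Rdh8, 64.1 for Rdh10, 56.2 for Rdh11, 47.6 for Rdh14 and 44.4 for Dhrs3. Rdh14 and Dhrs3 were thus below the median of these genes, whereas all 8 were above that of genes above 0, from 65.0 for Dhrs3 to 99.96 for Rbp3. With the same minimum, the medians of the mean normalized counts were 124 for the pigment epithelium list, 84.3 for the other retinoid enzymes, 161 for the nuclear receptors, 941 for cones, 1392 for Müller glia, 122 for pigment cells and 10.7 for blood. The 3 other list medians did not change.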

Other observations

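Some genes that are markers of retinal cells were listed at very low levels. Rlbp1, the cellular retinaldehyde-binding protein of Müller glia and the pigment epithelium, had a mean normalized count of 1.39, whereas Glul, of the same glia, had 17455. Pde6c, the catalytic phosphodiesterase subunit of cones, was at 0.0699, whereas Pde6h, its inhibitory partner, was at 537. Nrl, the rod transcription factor, was at 88.9, against 3390 for Nr2e3. Rlbp1, Pde6c and Nrl are each counted under 2 transcript accessions. Of the windows of 75 bases in the transcripts of Rlbp1, 92.2% and 92.6% occur in both, in Pde6c 83.8% and 94.1%, and in Nrl 96.6% and 100%. Stra6, the receptor for the retinol-binding protein, and Rbp4, that protein itself, were at 0.796 and 0.466 and are counted under 4 and 2 accessions. A cause was not tested.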
